A study of Homo sapiens with 8 samples.

Results

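The genes described here are 10 negative feedback inhibitors of growth factor and MAP kinase signalling: the dual-specificity phosphatases DUSP1, DUSP2, DUSP4, DUSP5, DUSP6, DUSP8 and DUSP10, and the Sprouty genes SPRY1, SPRY2 and SPRY4. They were taken by gene symbol from a deposited table of 24598 genes, and all 10 were found. The cells were CCD-1077Sk, a human line of normal skin fibroblasts, and 8 libraries of total RNA were sequenced from cells collected 6 h after treatment. Cells grown in high glucose medium with serum to 70% confluency received transforming growth factor beta 1 (TGFB1) with celastrol at 500 nM, TGFB1 with DMSO, celastrol at 500 nM with bovine serum albumin and citric acid, or, as control, albumin, citric acid and DMSO. Each of these 4 groups holds 2 libraries. No dose of TGFB1 is stated in the labels. All groups come from 1 line past passage 8, and separate cultures are not stated for the libraries of a group, so the p-values below rest on a spread between libraries that may be technical. The comparisons address how TGFB1 and celastrol, alone and together, changed the RNA of these inhibitors.

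MAP kinases are switched on by phosphorylation of a threonine and a tyrosine, and dual-specificity phosphatases of this family remove both phosphates. Sprouty proteins act further up, between receptor tyrosine kinases and RAF. Many of these genes are transcribed in answer to the kinases they restrain, so their RNA is widely read as a record of recent pathway activity. In fibroblasts TGFB1 signals through SMAD proteins and also through MAP kinases. Celastrol is a plant triterpenoid known to react with protein thiols and to induce the heat shock response.

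RNA of all 10 inhibitors was higher with celastrol than in control cells, from 1.84-fold for DUSP6 to 38.5-fold for DUSP2 between group means, where 33.8% of all tested genes were called higher and 21.3% lower. With TGFB1 and celastrol, 9 of the 10 were higher than with TGFB1, where 37.5% of tested genes were higher and 25.9% lower. The exception was SPRY4. Both counts include SPRY1, which reached the level needed for testing only through its libraries with celastrol. With TGFB1 against control, 4 of the 10 were higher, and 0 were lower, where 12.8% of tested genes were higher and 10.6% lower. The 4 were DUSP1, DUSP5, SPRY2 and SPRY4. These counts depend on the scaling, and with libraries scaled to a common total 3 were higher, DUSP1 no longer among them, and 3 (DUSP4, DUSP10 and SPRY1) were lower. That scaling also moved the median log2 fold change of all genes to -0.21. It called 6824 genes in either direction, against 5364 without it. In DUSP1, DUSP5, SPRY2 and SPRY4 the log2 fold change with celastrol was smaller in the presence of TGFB1. The test of this interaction called 6.89% of tested genes in that direction. The call held in all 15 alternatives for DUSP5, SPRY2 and SPRY4 and in 6 of 15 for DUSP1. The interaction includes the difference between TGFB1 and control cells, so its calls are not independent of those with TGFB1 against control. With TGFB1 and celastrol against celastrol, 0 of the 10 passed the threshold, where 0.00875% of tested genes did. Calls are from a limma fit to log2(normalized reads + 1) across 22866 genes, with Benjamini-Hochberg adjusted p under 0.05, and log2 fold changes are on that scale, which understates changes of low genes. A normalized read is an estimated read divided by a size factor of its library, not scaled by gene length.

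Promoter sequences of RefSeq on build GRCh38.p14, from 250 bases before to 50 after each annotated start, were matched by symbol to 8 of the 10 genes, in 12 windows. The windows of 5 genes are printed because they show how far these inhibitors differ in the cyclic AMP response element, the site of the CREB and ATF family of stimulus-activated factors. Capitals mark the core TGACG, or its reverse complement CGTCA, and where they run on they spell the full palindrome TGACGTCA. The windows are DUSP1 at chr5:172771146-172771445, DUSP8 at chr11:1572222-1572521, SPRY4 at chr5:142324198-142324497, SPRY2 at chr13:80341077-80341376 and DUSP2 at chr2:96145391-96145690, each on the minus strand and each written 5′ to 3′ along the gene.
DUSP1: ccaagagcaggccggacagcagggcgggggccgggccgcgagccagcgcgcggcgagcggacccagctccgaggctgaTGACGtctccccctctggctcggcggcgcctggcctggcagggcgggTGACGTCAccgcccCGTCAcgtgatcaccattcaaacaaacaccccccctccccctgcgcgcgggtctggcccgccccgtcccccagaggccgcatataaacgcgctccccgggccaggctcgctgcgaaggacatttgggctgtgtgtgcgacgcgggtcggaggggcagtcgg
DUSP8: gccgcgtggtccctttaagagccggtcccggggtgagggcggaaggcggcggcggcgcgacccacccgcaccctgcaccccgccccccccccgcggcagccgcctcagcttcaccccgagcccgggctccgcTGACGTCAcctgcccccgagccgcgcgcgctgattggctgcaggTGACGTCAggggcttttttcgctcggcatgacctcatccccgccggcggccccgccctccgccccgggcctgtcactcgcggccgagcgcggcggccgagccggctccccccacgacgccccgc
SPRY4: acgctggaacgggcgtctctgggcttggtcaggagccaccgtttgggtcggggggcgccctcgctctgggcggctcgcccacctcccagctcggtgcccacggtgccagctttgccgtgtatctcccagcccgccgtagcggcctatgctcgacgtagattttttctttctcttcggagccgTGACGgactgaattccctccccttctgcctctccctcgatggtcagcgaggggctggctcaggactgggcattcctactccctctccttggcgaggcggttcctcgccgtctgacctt
SPRY2: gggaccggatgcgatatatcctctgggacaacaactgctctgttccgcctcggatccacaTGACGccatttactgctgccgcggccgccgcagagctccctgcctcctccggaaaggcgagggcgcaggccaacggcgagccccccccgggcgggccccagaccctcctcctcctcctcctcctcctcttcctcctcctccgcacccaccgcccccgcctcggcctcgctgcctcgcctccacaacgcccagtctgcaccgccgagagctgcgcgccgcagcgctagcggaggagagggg
DUSP2: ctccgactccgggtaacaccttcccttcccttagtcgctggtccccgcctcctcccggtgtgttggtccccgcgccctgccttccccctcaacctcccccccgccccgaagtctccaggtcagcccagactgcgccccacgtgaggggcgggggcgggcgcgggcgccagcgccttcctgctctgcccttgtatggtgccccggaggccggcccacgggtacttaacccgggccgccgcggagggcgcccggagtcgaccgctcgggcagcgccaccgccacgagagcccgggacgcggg

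The full palindrome was present in the windows of DUSP1, with its first base at position -125 from the start, and of DUSP8, with copies at -118 and -74. It was present in 2 of the 12 windows and in 1.85% of the 35116 windows in the RefSeq table. The core, which every palindrome also contains, was present in 5 of the 12 windows, from DUSP1, DUSP8, DUSP10, SPRY2 and SPRY4, and in 24.6% of all windows. DUSP10, SPRY1 and SPRY2 had more than 1 window, and the SPRY2 window printed is that with the core. DUSP2, whose log2 fold change with celastrol against control was the largest of the 10, had neither form in its window, and neither did DUSP6 or SPRY1. The ETS core CCGGAA was found in 2 of the 12 windows, from SPRY1 and SPRY2, against 17.2% of all windows. No window of the 8 genes held the AP-1 site TGANTCA, the heat shock element (the units GAA, TTC and GAA in a row, each 2 bases from the next), the SMAD site CAGACA or the CArG box, which were present in 7.71%, 0.49%, 16.9% and 1.29% of all windows. Both strands were searched for all 7 motifs. A match describes these letters in these windows and is not evidence of a bound factor.

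Another feature that the choice of genes did not use lies in the 3′ untranslated region, where AU-rich elements mark short-lived transcripts. The heptamer TATTTAT, read from the GENCODE v29 transcript of each gene, was present in 7 of the 10 genes, all but DUSP5, DUSP6 and DUSP10. Among 14337 other tested coding genes it was present in 31.03%, and among the 7318 with a region in the same length range in 38.33%. DUSP4 and SPRY4 had 4 copies each, in regions of 3962 and 3782 bases. DUSP1 and SPRY1 had 3 copies each, in 672 and 1209 bases. DUSP5 had no ATTTA at all in 1118 bases.

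DUSP1, an early response phosphatase of the nucleus that acts on JNK, p38 and ERK, was the most abundant of the 10 per length of exon in all 4 groups. The gene is ENSG00000120129 at chr5:172768096-172771195 on the minus strand. DUSP1 had 8713 and 8638 normalized reads with TGFB1 and celastrol, 1990.05 and 1969 with TGFB1, 9240.05 and 8889 with celastrol alone, and 1610 and 1271 in control cells. The libraries with celastrol stood far above the others, and both TGFB1 libraries stood above both control libraries. The log2 fold change was 2.13 (SE 0.10, adjusted p = 8.45e-07) with TGFB1 and celastrol against TGFB1, and 2.66 (SE 0.10, adjusted p = 3.98e-07) with celastrol against control. TGFB1 against control gave 0.47 (SE 0.10, adjusted p = 0.0093). That last call was lost when libraries were scaled to a common total, at 0.24 (adjusted p = 0.0838), and without a variance trend (adjusted p = 0.0626). Over all alternatives the adjusted p ran from 0.00107 to 0.0838.

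DUSP2, a phosphatase best known from activated lymphocytes, was low in every library without celastrol. It lies at chr2:96143169-96145440 on the minus strand. DUSP2 had 1378 and 1541 normalized reads with TGFB1 and celastrol, 28.2 and 32.0 with TGFB1, 1709 and 1499 with celastrol alone, and 58.8 and 24.6 in control cells. Every library with celastrol was far above every library without it, and the TGFB1 and control libraries overlapped. Group means were 48.5-fold higher with TGFB1 and celastrol than with TGFB1 and 38.5-fold higher with celastrol than in control cells. The log2 fold changes were 5.55 (SE 0.32, adjusted p = 2.63e-06) and 5.36 (SE 0.32, adjusted p = 4.21e-06), and the second was 5.97 without control replicate 1 and 4.74 without control replicate 2. TGFB1 against control gave -0.33 (adjusted p = 0.52), with an adjusted p from 0.00744 to 0.732 over the alternatives. Its direction rested on the control libraries, at 0.28 (adjusted p = 0.311) without control replicate 1 and -0.95 (adjusted p = 0.00744) without control replicate 2.

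DUSP4, a nuclear phosphatase of ERK, JNK and p38, lies at chr8:29333064-29350684 on the minus strand. It had 2180.25 and 2223 normalized reads with TGFB1 and celastrol, 791 and 895 with TGFB1, 2208 and 2399 with celastrol alone, and 949 and 1119 in control cells. Celastrol libraries did not overlap with the others, and both TGFB1 libraries lay below both control libraries. Log2 fold changes were 1.39 (SE 0.10, adjusted p = 6.08e-06) with TGFB1 and celastrol against TGFB1 and 1.16 (SE 0.10, adjusted p = 2.09e-05) with celastrol against control. The value for TGFB1 against control was -0.29 (SE 0.10, adjusted p = 0.058), with an adjusted p from 0.00475 to 0.307 over the alternatives. It passed the threshold in 4 of 16 alternatives, among them a common total (-0.52), leaving out TGFB1 replicate 2 (-0.38, adjusted p = 0.0435) and leaving out control replicate 1 (-0.41, adjusted p = 0.0351).

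DUSP5, a nuclear phosphatase that acts on ERK, was among the genes that were higher with each agent. The gene lies at chr10:110497907-110511533 on the plus strand. DUSP5 had 4338 and 3845 normalized reads with TGFB1 and celastrol, 1294 and 1367 with TGFB1, 5052 and 4578 with celastrol alone, and 723 and 640.5 in control cells. All 4 groups were apart from one another. The log2 fold change was 0.97 (SE 0.09, adjusted p = 0.000126) with TGFB1 against control, 1.62 (SE 0.09, adjusted p = 1.92e-06) with TGFB1 and celastrol against TGFB1, and 2.82 (SE 0.09, adjusted p = 2.04e-07) with celastrol against control. The interaction was -1.20 (SE 0.12, adjusted p = 0.000684), meaning that the difference with celastrol was smaller in cells that also had TGFB1.

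DUSP6, the cytoplasmic phosphatase of ERK, lies at chr12:89347235-89352501 on the minus strand and had the smallest difference with celastrol alone of the 10. It had 2508 and 2598 normalized reads with TGFB1 and celastrol, 1648 and 1459 with TGFB1, 2829 and 2796 with celastrol alone, and 1713 and 1351 in control cells. Celastrol libraries stood above the rest, and the TGFB1 and control libraries overlapped. DUSP6 had log2 fold changes of 0.72 (SE 0.11, adjusted p = 0.000436) with TGFB1 and celastrol against TGFB1 and 0.89 (SE 0.11, adjusted p = 0.000173) with celastrol against control. For TGFB1 against control it was 0.03 (SE 0.11, adjusted p = 0.919). An antisense gene of GENCODE v29 shares 1875 exon bases with DUSP6, and since the labels do not say whether counting used strand, reads of the 2 genes cannot be told apart.

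DUSP8 and DUSP10 act mainly on JNK and p38. DUSP8, at chr11:1554051-1572271 on the minus strand, had 231 and 211 normalized reads with TGFB1 and celastrol, 98.9 and 75.0 with TGFB1, 251 and 260.4 with celastrol alone, and 101 and 103 in control cells. Its log2 fold change was 1.35 (SE 0.16, adjusted p = 0.000133) with TGFB1 and celastrol against TGFB1 and 1.32 (SE 0.16, adjusted p = 0.000202) with celastrol against control. DUSP10, at chr1:221701424-221742089 on the minus strand, had 1889 and 2142 normalized reads with TGFB1 and celastrol, 424 and 420.3 with TGFB1, 1945 and 2021 with celastrol alone, and 508 and 442 in control cells. The libraries of both genes separated by celastrol, while TGFB1 and control libraries lay close together, with the TGFB1 ones lower. For DUSP10 the log2 fold change was 2.25 (SE 0.09, adjusted p = 4.89e-07) with TGFB1 and celastrol against TGFB1 and 2.06 (SE 0.09, adjusted p = 8.39e-07) with celastrol against control. Between TGFB1 and control cells DUSP8 was at -0.24 (adjusted p = 0.348) and DUSP10 at -0.17 (adjusted p = 0.23). Scaling to a common total moved DUSP10 to -0.39 (adjusted p = 0.0114, with adjusted p up to 0.738 over the alternatives).

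**Figure D1:**
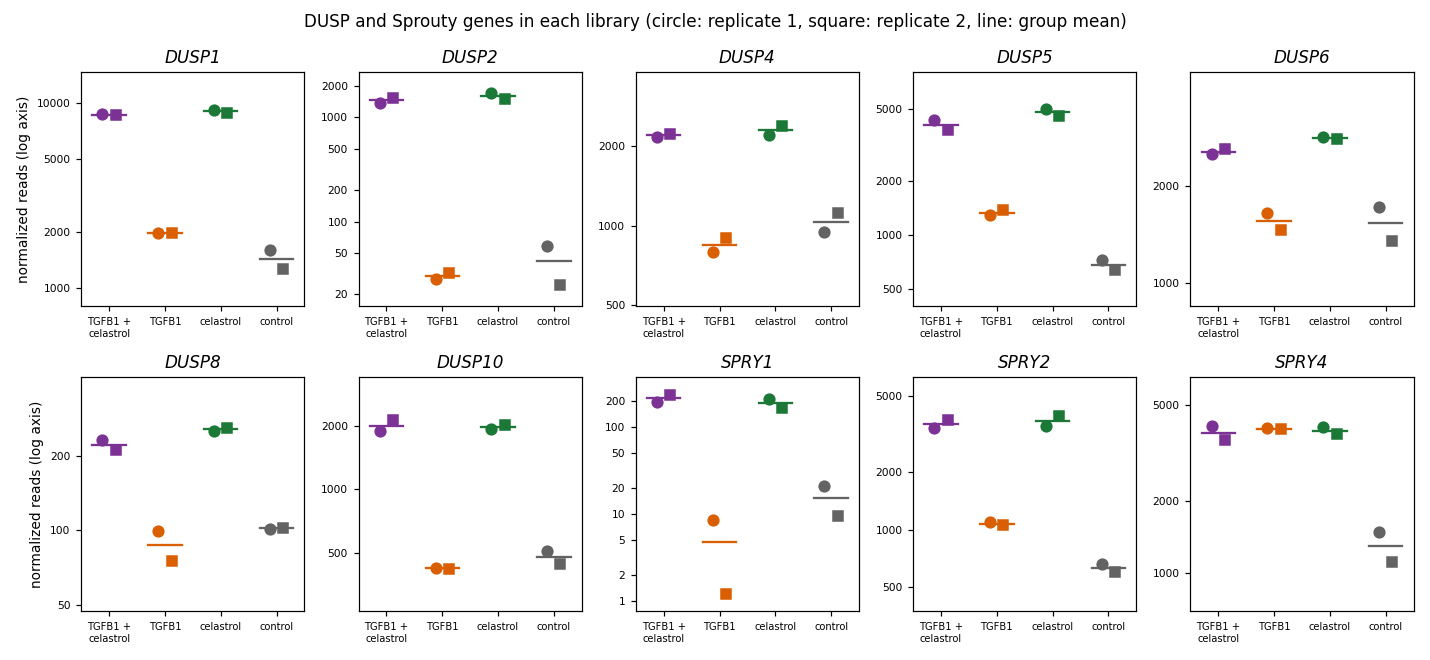
Normalized reads (vertical log axis, with its own scale in each panel) of each of the 10 genes in the 8 libraries, grouped as TGFB1 with celastrol, TGFB1, celastrol and control; circles are replicate 1, squares replicate 2 and lines group means. In 9 of the 10 panels all 4 libraries with celastrol lie above all 4 without it, and SPRY4 is the exception.

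SPRY1, which restrains ERK signalling downstream of fibroblast growth factor receptors, was near the detection limit in cells without celastrol. The gene lies at chr4:123396795-123403760 on the plus strand. SPRY1 had 193 and 232 normalized reads with TGFB1 and celastrol, 8.47 and 1.23 with TGFB1, 211 and 163 with celastrol alone, and 21.3 and 9.60 in control cells. The TGFB1 values stand on 7 estimated reads over the 2 libraries, and the control values on 33. Summed reads scaled for size factors were 45.3-fold higher with TGFB1 and celastrol than with TGFB1 (95% exact interval 21.8 to 113) and 14.4-fold higher with celastrol than in control cells (10.1 to 21.2). These intervals cover counting error only. SPRY1 reached the level needed for testing only through its libraries with celastrol, which also applies to the p-values that follow. The log2 fold changes were 5.53 (SE 0.63, adjusted p = 8.64e-05) and 3.60 (SE 0.63, adjusted p = 0.00132), and the first was 6.58 without TGFB1 replicate 1 and 4.49 without TGFB1 replicate 2. With TGFB1 against control, the value was -1.74 (SE 0.63, adjusted p = 0.0808), with an adjusted p from 0.00474 to 0.337 over the alternatives, and it passed the threshold in 3 of 15 alternatives, among them leaving out TGFB1 replicate 1 (-2.79, adjusted p = 0.00474) and a common total (-1.92, adjusted p = 0.047).

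SPRY2, a membrane-associated inhibitor that binds the ubiquitin ligase CBL, was higher in all celastrol libraries and in both TGFB1 libraries than in control cells. The gene lies at chr13:80335976-80341126 on the minus strand. SPRY2 had 3416 and 3743 normalized reads with TGFB1 and celastrol, 1090.4 and 1061 with TGFB1, 3497 and 3925 with celastrol alone, and 658 and 597 in control cells. The control libraries were the lowest and the TGFB1 libraries came between them and those with celastrol. For SPRY2, log2 fold changes were 0.78 (SE 0.08, adjusted p = 0.000271) with TGFB1 against control, 1.73 (SE 0.08, adjusted p = 1.01e-06) with TGFB1 and celastrol against TGFB1, and 2.56 (SE 0.08, adjusted p = 2.26e-07) with celastrol against control. The interaction was -0.83 (SE 0.12, adjusted p = 0.00275).

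SPRY4, which blocks RAS-dependent ERK activation by receptor kinases, was higher than in control cells with TGFB1, with celastrol and with both, to about the same level. The gene lies at chr5:142310427-142326455 on the minus strand. SPRY4 had 4086 and 3579.99 normalized reads with TGFB1 and celastrol, 3999.8 and 3965 with TGFB1, 4036 and 3779.8 with celastrol alone, and 1483 and 1105 in control cells. The control libraries were low and the other 3 groups overlapped. In log2 terms the difference was 1.64 (SE 0.13, adjusted p = 4.94e-05) with TGFB1 against control and 1.61 (SE 0.13, adjusted p = 1.58e-05) with celastrol against control. With TGFB1 and celastrol against TGFB1 it was -0.06 (95% interval -0.35 to 0.23, adjusted p = 0.707). The interaction was -1.67 (SE 0.18, adjusted p = 0.000761).

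**Figure D2:**
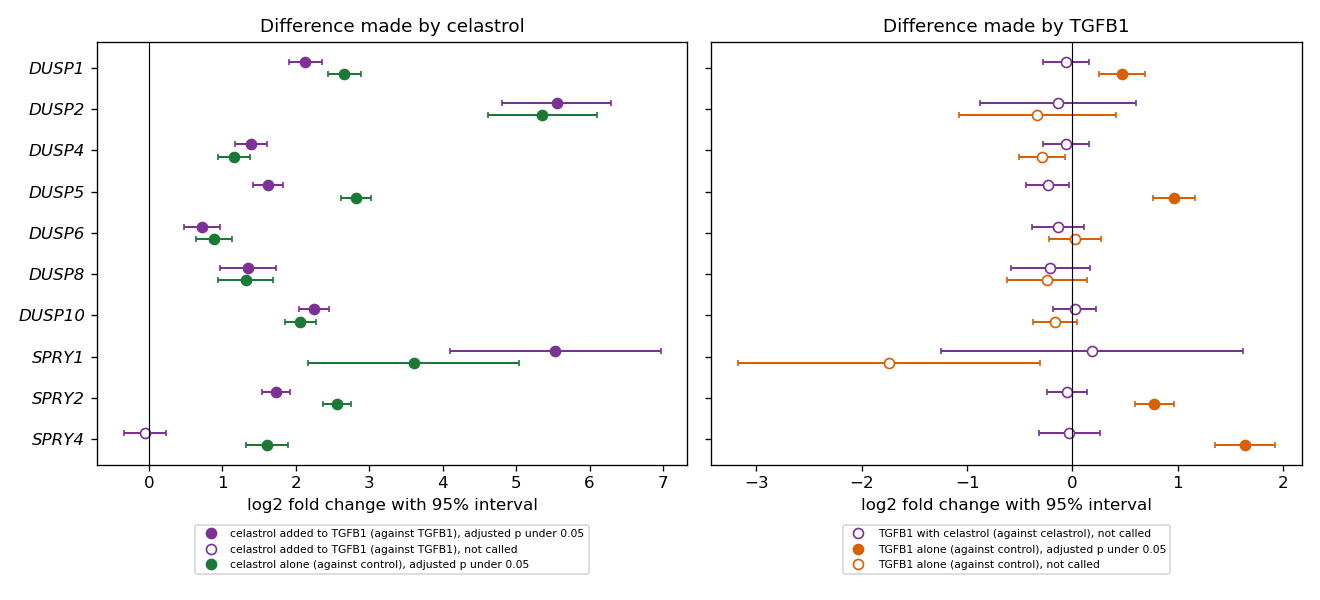
Log2 fold changes of the 10 genes with 95% intervals, in comparisons with TGFB1, with celastrol and with both, from the limma fit over 8 libraries. With celastrol alone, values run from 0.89 for DUSP6 to 5.36 for DUSP2, while SPRY4 is the only gene near 0 with TGFB1 and celastrol against TGFB1.

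Over the 10 genes the median log2 fold change was 2.31 with celastrol against control, where the median of all tested genes was 0.08, and 1.68 with TGFB1 and celastrol against TGFB1, where it was 0.12. With TGFB1 against control, the median was -0.07 and that of all genes 0.00. All 4 celastrol libraries exceeded all 4 others in 9 of the 10 genes and in 34.4% of tested genes. These are counts and medians of a list chosen with earlier results of these data known, and they are not independent evidence of a direction.

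The depth was 20716675 to 42518243 estimated reads assigned to genes per library, and a count of 0 allows 3 reads, or 1.80 to 4.24 normalized reads, for counting error only. Genes above 0 numbered 24483 to 24539 of the 24598 with TGFB1 and celastrol, 21905 to 21916 with TGFB1, 24473 to 24524 with celastrol alone, and 22197 to 22720 in control cells, so the number of genes detected moved with celastrol as 9 of the 10 genes did. Every deposited gene reached about 11 estimated reads or more in some library. Genes that did so only with celastrol therefore count toward the 24598. The 8 fibroblast markers were all in the table, with a summed level of 364542 to 425985 normalized reads with TGFB1 and celastrol, 541200 to 660340 with TGFB1, 383749 to 458273 with celastrol, and 460763 to 484527 in control cells. Of 5 endothelial markers 4 were in the table, with a sum of 360 to 465 with TGFB1 and celastrol, 52.7 to 98.9 with TGFB1, 354 to 370.5 with celastrol, and 52.8 to 92.5 in control cells. Among them PECAM1 had 72.9 and 61.6 normalized reads with TGFB1 and celastrol, 0 and 0 with TGFB1, 46.4 and 61.8 with celastrol alone, and 0 and 0.600 in control cells, and CDH5 was not in the table. Of 5 melanocyte markers 3 were in the table, with sums of 1270.0 to 1312 with TGFB1 and celastrol, 222 to 236 with TGFB1, 1312.5 to 1365 with celastrol, and 1034 to 1074 in control cells. The keratin genes KRT5, KRT14 and KRT1 were not in the table, and the only keratinocyte marker there, KRT10, ran from 873 to 1059 over the 8 libraries. The 3 immune markers in the table summed to 374 to 516 with TGFB1 and celastrol, 309 to 317 with TGFB1, 394 to 484 with celastrol, and 245 to 369 in control cells. These sums are mostly of MITF among melanocyte markers and of CD68 among immune markers. MLANA, a melanocyte marker, had 108 and 85.8 normalized reads with TGFB1 and celastrol, 0 and 1.23 with TGFB1, 124 and 84.8 with celastrol alone, and 0 and 0 in control cells. CD14, a monocyte marker, had 38.6 and 50.6 with TGFB1 and celastrol, 5.65 and 4.92 with TGFB1, 35.6 and 36.3 with celastrol alone, and 5.003 and 6.00 in control cells. Endothelial sums, MLANA and CD14 were thus higher in all 4 libraries with celastrol than in the other 4, as 9 of the 10 genes were. The same held for PECAM1, VWF, TEK, MITF and PTPRC. In contrast, KDR, PMEL, CD68 and KRT10 overlapped between libraries with and without celastrol. PMEL, a melanocyte marker, had 14.0 and 9.90 normalized reads with TGFB1 and celastrol, 14.1 and 9.83 with TGFB1, 9.28 and 20.6 with celastrol alone, and 8.75 and 11.4 in control cells. The part of these markers and of the number of genes detected in the results was not tested. In bulk samples, fewer cells of a type and less RNA per cell cannot be told apart.

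The interaction asks whether the difference with celastrol depended on TGFB1. Equivalently, it is the log2 fold change of TGFB1 and celastrol against celastrol, less that of TGFB1 against control. Its calls therefore share values with those of TGFB1 against control and are not separate support. Past the threshold, the interaction was negative in 4 of the 10 genes and positive in 0, where 4.36% of tested genes were called positive. Among these 4 the farthest from 0 was SPRY4, followed by DUSP5 and SPRY2. For DUSP1 it was -0.53 (SE 0.14, adjusted p = 0.0413), but this call held in 6 of 15 alternatives, with adjusted p up to 0.176. Leaving out 1 library ended it for each library but control replicate 1, with adjusted p up to 0.154. SPRY1 had the highest estimate, at 1.93 (adjusted p = 0.215, with adjusted p from 0.0168 to 0.451), and passed the threshold only without TGFB1 replicate 1, at 2.97.

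With TGFB1 and celastrol against celastrol, the limma fit called 0 of the 10 genes and 2 genes in the whole table. At an unadjusted p under 0.05, 1 of the 10 genes (DUSP5) and 3.8% of all tested genes differed. DUSP5 had a log2 fold change of -0.24 (95% interval -0.44 to -0.03, adjusted p = 1). The widest interval was that of SPRY1, from -1.24 to 1.62, so a difference of some size could not have been seen there. The 2 genes called over the whole table were FOSB, an AP-1 subunit, at a log2 fold change of 1.04 (adjusted p = 0.0499), and FOXD4L6, a gene with near-identical copies. FOXD4L6 had 0.0158 and 0.109 normalized reads with TGFB1 and celastrol and 12.9 and 18.4 with celastrol alone. It reached the level needed for testing only through the libraries with celastrol alone, where it was high. FOSB and FOXD4L6 are named here after their values were seen.

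Set against control cells, all 10 genes were called higher with TGFB1 and celastrol, where 34% of tested genes were, with log2 fold changes from 0.75 for DUSP6 to 5.22 for DUSP2. With celastrol against TGFB1, 9 of the 10 were higher, where 37.5% of tested genes were. Both counts include SPRY1, which reached the level needed for testing only through its libraries with celastrol. These comparisons share libraries with those above.

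The genes differed widely in level. Per kilobase of merged exon in GENCODE v29, DUSP1 had 4297 normalized reads with TGFB1 and celastrol and 713 in control cells. DUSP5 had 1565 with TGFB1 and celastrol and 261 in control cells. At the other end, SPRY1 had 53.7 with TGFB1 and celastrol and 3.89 in control cells, and DUSP8 had 47.9 and 22.1 in those groups. DUSP2 had 755 with TGFB1 and celastrol, the fourth highest of the 10, and 21.6 in control cells, where only SPRY1 was lower.

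Expression patterns over the 8 libraries were compared by Pearson correlation of log2(normalized reads + 1), among 12274 genes that averaged 50 normalized reads or more. For DUSP1 the most similar were PDE4D (r = 0.9992), POU2F3 and CDKN2AIP. SPRY2 was closest to SPTY2D1 (r = 0.9995), TRIB1 and KLF6, and DUSP10 to IRF5, MYO7A and NR4A3. SPRY4 was closest to SNCAIP (r = 0.9971), ANGPTL4 and GTPBP4, and had 108 candidates over 0.95, against 545 to 1080 for the other members. The correlations describe 8 libraries that fall into 4 groups, and any 2 genes that separate by celastrol score high. Among the 10, SPRY4 correlated with the others at 0.323 to 0.772, and the other 9 with each other at 0.815 to 0.997.

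Other genes of the same pathways were taken from lists that were also chosen with earlier results known. Their counts are to be read against the shares of all tested genes, which were 12.8% higher and 10.6% lower with TGFB1 against control, 37.5% higher and 25.9% lower with TGFB1 and celastrol against TGFB1, and 33.8% higher and 21.3% lower with celastrol against control. Of 6 tested MAP kinase phosphatases and small dual-specificity phosphatases, 4 were higher with TGFB1 than in control cells, 2 were higher and 3 lower with TGFB1 and celastrol than with TGFB1, and 3 were higher and 3 lower with celastrol than in control cells. DUSP7, an ERK phosphatase, had another pattern, with 1306 and 1239 normalized reads with TGFB1 and celastrol, 2859 and 3054 with TGFB1, 1214 and 1255 with celastrol alone, and 1577 and 1599 in control cells. The TGFB1 libraries were the highest of the 8. The log2 fold change was 0.90 (SE 0.06, adjusted p = 2.92e-05) with TGFB1 against control and -1.22 (SE 0.06, adjusted p = 1.4e-06) with TGFB1 and celastrol against TGFB1. DUSP16, a JNK phosphatase, had a log2 fold change of 0.74 (adjusted p = 8.77e-05) with celastrol against control. Among 4 other Sprouty and SPRED inhibitors, 2 were higher with TGFB1 and celastrol than with TGFB1 and 3 with celastrol than in control cells. SPRED2 had a log2 fold change of 0.83 with celastrol against control. Of 15 genes of the ERK cascade, 1 was higher and 10 lower with TGFB1 and celastrol than with TGFB1, beside 37.5% and 25.9% of all tested genes. MAPK7, the ERK5 kinase, was among the lower ones, at -1.73 (adjusted p = 7.04e-06). Of the same 15 genes, 7 were higher and 1 lower with TGFB1 than in control cells, beside 12.8% and 10.6%. With celastrol against control, 2 were higher and 4 lower, beside 33.8% and 21.3%.

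Of 12 genes transcribed downstream of ERK, 10 were higher and 1 lower with celastrol than in control cells, beside 33.8% and 21.3% of all tested genes. In the comparison of TGFB1 and celastrol with TGFB1, 8 were higher and 2 lower, beside 37.5% and 25.9%. With TGFB1 against control, 8 were higher and 3 lower, beside 12.8% and 10.6%. FOS, a subunit of AP-1, had a log2 fold change of 6.94 with celastrol against control, and EGR1, an early growth response factor, of 4.21. EGR1 was also higher with TGFB1 than in control cells, at 1.67, and had an interaction of -1.53. IER3, an early response gene, had 3979 and 4583 normalized reads with TGFB1 and celastrol, 3551 and 3986 with TGFB1, 3496 and 3340.3 with celastrol alone, and 735 and 711 in control cells. As for SPRY4, only the control libraries were low. The interaction of IER3 was -2.06. CCND1, of the same list, went the other way with celastrol. It had 17353 and 15402 normalized reads with TGFB1 and celastrol and 41525 and 42268 with TGFB1. With celastrol alone it had 16580 and 15556, and in control cells 25827 and 23316.

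**Figure D3:**
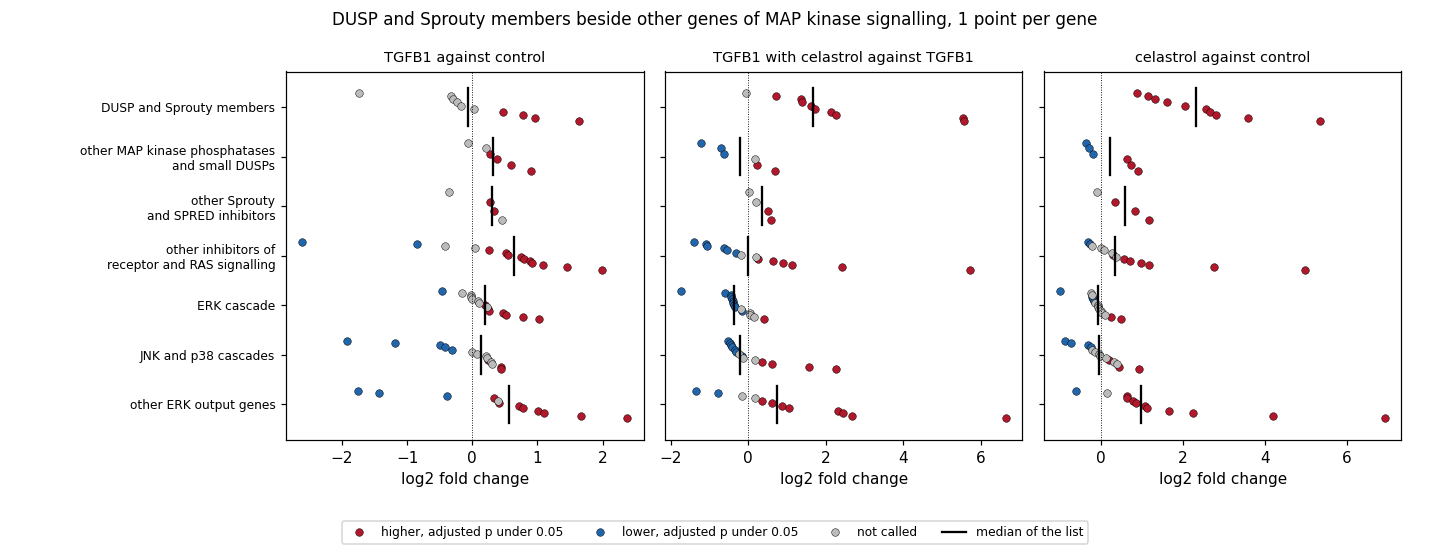
Log2 fold changes (horizontal axis) of the 10 genes and of 6 lists of other MAP kinase genes, 1 point per gene, colored by call at adjusted p under 0.05, with the median of each list as a line. With celastrol against control, the 10 genes lie at 0.89 or above, and the ERK cascade genes lie around 0, between -0.99 and 0.49.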

How the data were processed

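Per the labels' protocols, RNA was isolated with TRIzol and made into libraries with the VAHTS Total RNA-seq kit. Partek 10.0.22, STAR 2.7.3a, DESeq2 and build hg38 are named in the submitters' processing notes, without roles. Which annotation and counting rule were used, and whether strand was, is not given in the sources. The deposited signal is 1 value per gene and library. Between 74.5% and 75.8% of the low values of each library came out as whole reads within 0.02 reads, so the signal deposited by the authors is taken to be an estimated read number over 1 size factor per library, and no count model was fitted.

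A gene was tested if 2 or more libraries reached 10 normalized reads, which kept 22866 genes, all 10 members among them. SPRY1 passed only through its libraries with celastrol, since among those without celastrol only control replicate 1 reached 10. Log2(value + 1) was fitted with limma 3.58.1 in R 4.3.3, with 1 mean per group, a variance trend and 4 residual degrees of freedom. Tests were two-sided, and p-values were adjusted by Benjamini-Hochberg over all tested genes within each of 7 comparisons. The fit was tested on simulated counts with an assumed spread, in which a small set of genes changed in the TGFB1 libraries only. In these data many more genes were called, so that simulation does not give the error rate here. Replicate numbers are those of the titles, although the source name of celastrol replicate 2 has the number 3. The members and lists were chosen with earlier results of these data known. All members are named. From each pathway list up to 4 genes per comparison with the smallest p past the threshold were named, and for likeness the 3 genes with the highest correlation, leaving out clone, antisense, pseudogene and small RNA names. CCND1, MAPK11 and MAPK13 were named beside these because they differed from other genes of their lists. DUSP9 was not in the table. Gene ends are given as the file's stop minus 1, since 13113 of 16355 genes with the GENCODE v29 start had a stop 1 base past its end. Alternatives were 2 other scalings (a common total, median centring), pseudocounts of 0.5 and 5, no filter, no variance trend, only the groups compared, a replicate block and leaving out each library.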

Additional observations from a re-analysis of the deposited data

Results flagged for a closer look

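For 4 of the 10 genes the log2 fold change with celastrol differed between cells with and without TGFB1, in the limma test of the interaction itself. All 4 were negative, where 6.89% of tested genes were called negative and 4.36% positive. The same 4 were called with TGFB1 against control, a difference that the interaction includes. The interaction was -0.53 for DUSP1, -1.20 for DUSP5, -0.83 for SPRY2 and -1.67 for SPRY4. For SPRY4 the log2 fold change was -0.06 with TGFB1 and celastrol against TGFB1 and 1.61 with celastrol against control. For DUSP5 these values were 1.62 and 2.82, for SPRY2 1.73 and 2.56, and for DUSP1 2.13 and 2.66. The DUSP1 call was lost in 9 of 15 alternatives, and those of DUSP5, SPRY2 and SPRY4 passed in all 15.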

How the results depend on the processing

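Over 70 pairs of gene and comparison, 1109 alternative values gave 1088 on the same side of the threshold and in the same direction, 11 that lost a call, 10 that gained one and 0 called values that changed sign. In 20 cases a value that was not called either way changed sign. The 10 higher with celastrol against control and the 9 higher with TGFB1 and celastrol against TGFB1 were 10 and 9 under all alternatives. With TGFB1 against control, members called lower were 0, but 3 with a common total (DUSP4, DUSP10 and SPRY1), 2 with the replicate block (DUSP4 and SPRY1), and 0 to 1 when 1 library was left out. A common total moved the median of all genes in that comparison to -0.21. All genes called in that comparison were 5364 in the main fit and 6824 with a common total. They were 3252 to 4763 without 1 library (3314 without control replicate 1, 3252 without control replicate 2). With TGFB1 and celastrol against celastrol, 2 genes were called, 0 with median centring, a pseudocount of 0.5 or no filter, 1 with a pseudocount of 5, no variance trend, only the groups compared or the replicate block, and 0 when 1 library was left out. The interaction called 2573 genes, 1245 without a variance trend and 1218 to 2722 without 1 library, and members called positive were 0 to 1 without 1 library (SPRY1, without TGFB1 replicate 1). Members called negative were 3 to 4. Deviations of same-numbered libraries correlated at 0.211 to 0.293, but each comparison has only 2 numbers, so the numbers are not taken to pair libraries. The block gave 6542 calls with TGFB1 against control and 3665 in the interaction. With 2 libraries a group, and 7 reads of SPRY1 with TGFB1, precision is limited most for SPRY1.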

Other observations

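Of 14 other inhibitors of receptor and RAS signalling, 10 were higher and 2 lower with TGFB1 than in control cells, beside 12.8% higher and 10.6% lower among all tested genes. With TGFB1 and celastrol, 6 were higher and 6 lower than with TGFB1, beside 37.5% and 25.9%. With celastrol, 7 were higher and 2 lower than in control cells, beside 33.8% and 21.3%. RGS2, a regulator of G protein signalling, had 2788 and 2741 normalized reads with TGFB1 and celastrol, 57.9 and 45.5 with TGFB1, 2904 and 3122 with celastrol alone, and 111 and 78.6 in control cells. Like DUSP2, it was low in every library without celastrol. Its log2 fold change was 5.72 (limma adjusted p = 1.42e-07) with TGFB1 and celastrol against TGFB1. ERRFI1, a feedback inhibitor of the epidermal growth factor receptor, had log2 fold changes of 1.45 (limma adjusted p = 2.54e-05) with TGFB1 and 2.76 (adjusted p = 3.53e-07) with celastrol, each against control. SOCS2, an inhibitor of cytokine signalling, had 869 and 861 normalized reads with TGFB1 and celastrol, 127 and 206 with TGFB1, 924 and 794 with celastrol alone, and 1006 and 984 in control cells. Only the TGFB1 libraries were low, with a log2 fold change of -2.61 (limma adjusted p = 3.93e-05) with TGFB1 against control.

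Of 14 genes of the JNK and p38 cascades, 4 were higher and 7 lower with TGFB1 and celastrol than with TGFB1, beside 37.5% and 25.9% of all tested genes, and 3 were higher and 4 lower with celastrol than in control cells, beside 33.8% and 21.3%. MAP2K6, a kinase that activates p38, had a log2 fold change of -1.93 (limma adjusted p = 6.85e-05) with TGFB1 against control and 2.26 (adjusted p = 6.34e-06) with TGFB1 and celastrol against TGFB1. The p38 genes MAPK12 and MAPK14 were lower with celastrol than in control cells, at -0.87 and -0.72. The p38 genes MAPK11 (-0.21, limma adjusted p = 0.121) and MAPK13 (0.14, adjusted p = 0.297) were not called there. MAP2K3, of the same list, was higher, at 0.93 (adjusted p = 5.3e-05).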
